A study of Homo sapiens with 8 samples.

Results

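The genes described here are 9 components of the DNA damage checkpoint: the kinases ATM, ATR and PRKDC with the ATR partner ATRIP, the effector kinases CHEK1 and CHEK2, and the mediators MDC1, RNF8 and TP53BP1. They were chosen by name as the kinases and mediators of this pathway, and a probe set (the group of array probes that reads one transcript) was used where its annotation listed a single gene symbol. Of the 9 genes, 8 had such a probe set and all 8 passed the intensity filter, among 19775 genes with a probe set and 11678 genes tested. ATRIP was not analysed here, since its 3 probe sets are annotated to both ATRIP and TREX1. The arrays held RNA of RL, an established human B lymphoma line labelled t(14,18)+, the translocation that places BCL2 under the immunoglobulin heavy chain locus. Cells were grown for 14 days as multicellular aggregates and sorted by pyronin Y, a dye that binds RNA. The dull fraction was taken as quiescent (4 arrays) and the bright fraction as cycling (4 arrays), so that both groups share line, genotype, culture and age of the aggregates. The comparison asks how checkpoint gene expression in resting cells differs from that in dividing cells of the same aggregates. Each group is a sort by RNA content of 1 cell line, and the labels do not say whether samples came from separate cultures, so that the p-values measure a spread that may be technical.

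As background, ATM responds mainly to broken DNA ends, ATR to stretches of single-stranded DNA such as those at stalled replication forks, and PRKDC encodes DNA-PKcs, the catalytic kinase of end joining. ATM passes its signal to CHEK2 and ATR to CHEK1, and both effector kinases restrain the CDC25 phosphatases that drive the cell cycle. On chromatin beside a break, MDC1 binds phosphorylated H2AX, RNF8 is the ubiquitin ligase that MDC1 recruits, and TP53BP1 is gathered by the resulting marks and favours end joining over resection. In B cells ATM, DNA-PKcs and TP53BP1 also serve the rejoining of immunoglobulin genes.

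The deposited ATM intensity was more than 2 times as high in quiescent cells as in cycling cells, while CHEK1, PRKDC, MDC1 and CHEK2 were lower in quiescent cells on every array. At their brightest probe sets ATR and TP53BP1 did not pass the test, though dimmer TP53BP1 probe sets passed as higher as deposited. RNF8 passed it under only 1 of the 3 array scalings tried. Of the 8 genes tested with limma, 1 rose and 5 fell in quiescent cells once the arrays were centred on their medians, with an adjusted p below 0.05 as the threshold. In the same fit 2.8% of all genes tested were called higher and 32.5% lower. With the scaling as deposited 1 rose and 4 fell, against 12.2% and 15.4% of all genes, and quantile normalization gave the same 1 and 4 genes, against 10.5% and 16.3%. Centring shifts every log2 difference by −0.41, and over all genes the median was −0.33 after centring, 0.08 in the deposited scaling and −0.04 with quantile normalization. The median over the 8 genes was −0.87, −0.46 and −0.36 in that order. In the centred values 1 gene was higher and 4 were lower on all quiescent arrays than on any cycling array, against 3.04% and 28.3% of all genes, and in the deposited values also 1 and 4, against 13.3% and 15.4%. Log2 differences below are quiescent minus cycling and centred unless stated, and intensities are the deposited values.

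ATM, CHEK1, CHEK2, MDC1 and PRKDC were called in the same direction under all 3 scalings, and the promoters of these genes other than PRKDC are shown because the results turn on them. Each line holds the 250 bases before the first listed start of the gene, 5′ to 3′ on its strand, from RefSeq on GRCh38.p14. Capitals mark matches, on either strand, to CCAAT, the box bound by NF-Y, and to TTTGAA or TTCGAA, the cell cycle homology element of many mitotic promoters. The windows lie at chr11:108222817-108223066 on the plus strand for ATM, chr11:125625979-125626228 on the plus strand for CHEK1, chr22:28741821-28742070 on the minus strand for CHEK2 and chr6:30717282-30717531 on the minus strand for MDC1.
ATM: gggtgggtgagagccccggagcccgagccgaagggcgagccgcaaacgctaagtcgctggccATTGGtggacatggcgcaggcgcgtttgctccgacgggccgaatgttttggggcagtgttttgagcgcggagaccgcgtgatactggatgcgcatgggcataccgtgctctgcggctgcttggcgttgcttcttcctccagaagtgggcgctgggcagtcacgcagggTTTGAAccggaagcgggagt
CHEK1: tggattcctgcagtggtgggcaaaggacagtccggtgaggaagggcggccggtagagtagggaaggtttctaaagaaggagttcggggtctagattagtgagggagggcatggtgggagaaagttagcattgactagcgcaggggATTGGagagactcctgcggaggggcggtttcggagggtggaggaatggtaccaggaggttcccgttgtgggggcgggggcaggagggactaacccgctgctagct
CHEK2: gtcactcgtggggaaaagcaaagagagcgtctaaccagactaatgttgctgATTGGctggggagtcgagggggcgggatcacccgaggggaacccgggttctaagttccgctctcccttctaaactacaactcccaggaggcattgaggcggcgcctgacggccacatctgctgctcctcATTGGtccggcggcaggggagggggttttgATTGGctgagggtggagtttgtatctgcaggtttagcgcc
MDC1: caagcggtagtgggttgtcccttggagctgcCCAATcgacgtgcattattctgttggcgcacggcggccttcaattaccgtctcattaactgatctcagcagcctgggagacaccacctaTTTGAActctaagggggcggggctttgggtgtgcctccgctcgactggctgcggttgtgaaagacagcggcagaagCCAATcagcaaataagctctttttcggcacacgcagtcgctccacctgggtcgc
The CHEK2 window holds 3 CCAAT matches, and the MDC1 window holds 2 with 1 TTTGAA match. The ATM window holds 1 of each, with TTTGAA nearer to the start, and the CHEK1 window holds 1 CCAAT match. Of the 8 members with a window in the table, ATRIP included and PRKDC left out, 7 held CCAAT, against 33.0% of 27305 windows of the same length. TTTGAA or TTCGAA was found in 2 of the 8, ATM and MDC1, against 14.6% of all windows. The E2F letters TTTGGCGC, TTTCCCGC, TTTGGCGG and TTTCCCGG were found in ATR alone, against 3.71% of all windows. The search took exact letters in the 250 bases before the first listed start of each gene. Sites elsewhere or with other letters would be missed, so a window without a match does not show that the gene lacks a site. No matches overlapped. ATM, which rose, and MDC1, which fell, both held CCAAT and TTTGAA. Whether any of these letters has a part in the changes was not tested.

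ATM was the member that rose. Its brightest probe set measured 5724, 8957, 6953 and 6846 in quiescent samples 1 to 4, against 2863, 4308, 3104 and 2967 in cycling samples 1 to 4. Every quiescent array lay above every cycling array, and sample 2 was the highest of both groups. The mean was 7120 ± 1345 (SD, n = 4) in quiescent cells and 3310 ± 672 (SD, n = 4) in cycling cells, giving 0.69 on the log2 scale (SE 0.17, adjusted p = 0.00478 by limma). As deposited the log2 difference was 1.11 (adjusted p = 3.79e-04) and after quantile normalization 1.21 (adjusted p = 3.70e-04). All 5 ATM probe sets above the filter were higher on every quiescent array than on any cycling array, and 4 of them were called higher in a fit over all probe sets, where 1.71% of probe sets were. Their log2 differences ran from 0.59 to 1.42. The largest was that of a dimmer probe set, which averaged 1346 in quiescent cells against 379 in cycling cells. The sixth probe set was below the filter.

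**Figure D1:**
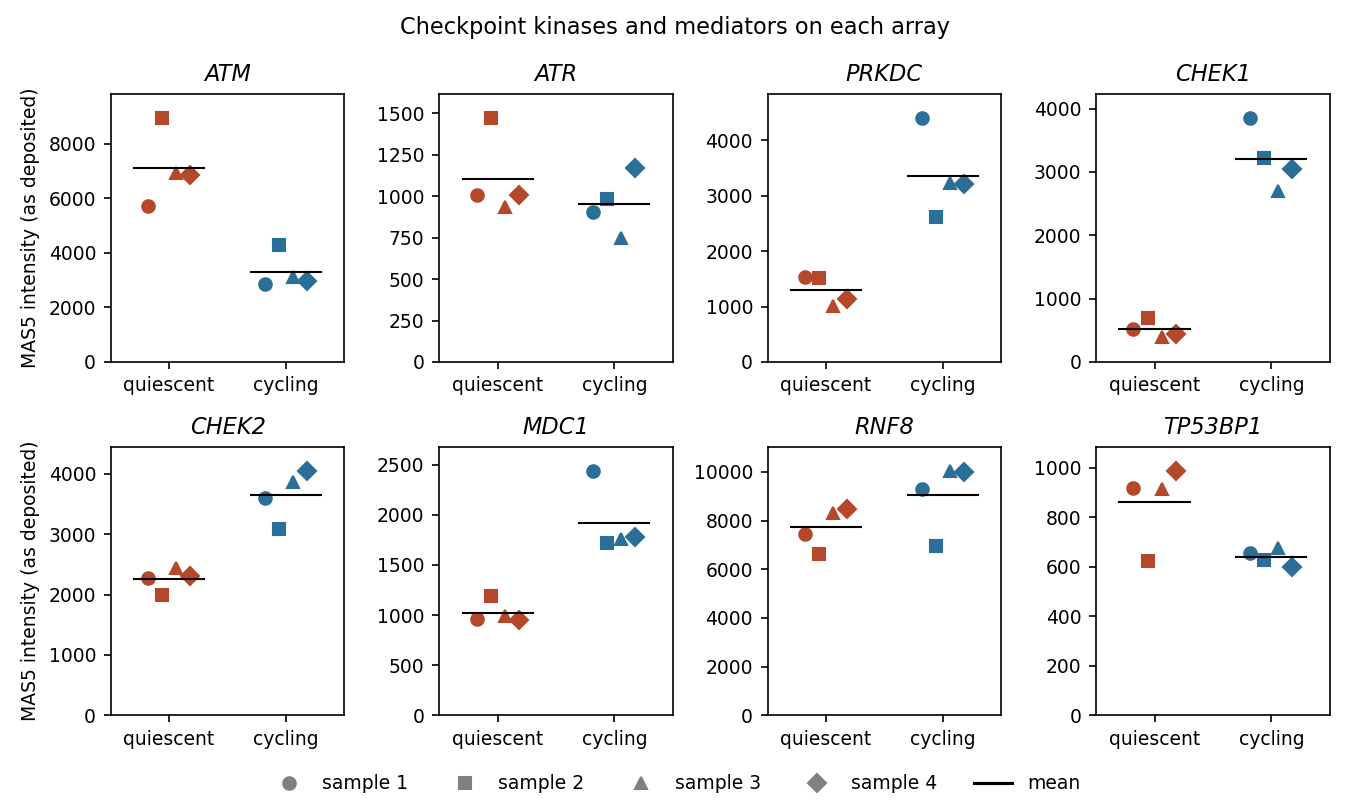
Deposited MAS5 intensity of the brightest probe set of each gene (vertical axis, linear from 0) on the 4 quiescent and 4 cycling arrays, with 1 symbol for each sample number and a line at the group mean. The groups do not overlap for ATM (quiescent higher) and for PRKDC, CHEK1, CHEK2 and MDC1 (quiescent lower), and they overlap for ATR, RNF8 and TP53BP1.

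ATR, the kinase of replication stress, did not pass the test. It measured 1006, 1473, 935 and 1008 in quiescent samples 1 to 4, against 905, 986, 750 and 1170 in cycling samples 1 to 4. The groups overlapped, and quiescent sample 2 lay above all other arrays. The means were 1106 ± 247 in quiescent cells and 953 ± 175 in cycling cells (SD, n = 4 each), with a log2 difference of −0.20 (95% interval −0.62 to 0.21, adjusted p = 0.463). The sign depends on the scaling, with 0.21 as deposited (adjusted p = 0.426) and 0.19 quantile normalized (adjusted p = 0.498). Its other probe set above the filter had a difference of −0.62 (adjusted p over all probe sets 0.133).

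PRKDC, which encodes DNA-PKcs, fell. It measured 1534, 1513, 1017 and 1136 in quiescent samples 1 to 4, against 4406, 2615, 3237 and 3206 in cycling samples 1 to 4. All quiescent arrays were below all cycling arrays, and cycling sample 2 was the lowest of the cycling arrays. The mean was 1300.0 ± 263 in quiescent cells and 3366 ± 750 in cycling cells (SD, n = 4 each), a log2 difference of −1.78 (SE 0.22, adjusted p = 1.47e-05) and −1.37 as deposited (adjusted p = 2.07e-04). Another probe set averaged 616 in quiescent cells and 1478 in cycling cells, with a difference of −1.71. The remaining PRKDC probe set, below the filter, read 39.1 to 94.5 in quiescent cells and 25.2 to 37.1 in cycling cells, and was not called (0.59, adjusted p over all probe sets 0.565).

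The effector kinase CHEK1 had the largest change of the 8 genes. It measured 518, 699, 393 and 448 in quiescent samples 1 to 4, against 3852, 3220, 2703 and 3048 in cycling samples 1 to 4. The highest quiescent array lay far below the lowest cycling array. The means were 514 ± 133 in quiescent cells and 3206 ± 481 in cycling cells (SD, n = 4 each), a log2 difference of −3.07 (SE 0.20, adjusted p = 7.73e-08), or −2.66 as deposited and −2.70 quantile normalized. The CHEK1 probe sets did not move alike. The third brightest had a difference of −3.03, whereas the next to the brightest had −1.54 (adjusted p over all probe sets 2.97e-04). That probe set averaged 810 in quiescent cells and 1797 in cycling cells. The dimmest read 103 to 260 in quiescent cells and 49 to 145 in cycling cells and was not called (0.28, adjusted p 0.775). In that fit 9.82% of all probe sets were called lower, with 4.52% as deposited and 4.82% quantile normalized.

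CHEK2, the effector kinase downstream of ATM, fell by less. Its 1 probe set measured 2272, 2000, 2436 and 2314 in quiescent samples 1 to 4, against 3603, 3087, 3873 and 4045 in cycling samples 1 to 4. The groups did not overlap, and sample 2 was the lowest array of each group. The means were 2255 ± 184 in quiescent cells and 3652 ± 419 in cycling cells (SD, n = 4 each), a log2 difference of −1.10 (SE 0.19, adjusted p = 2.63e-04) and −0.69 as deposited (adjusted p = 1.69e-03). CHEK2 has pseudogene copies elsewhere in the genome, and the annotation used here does not show how much of the signal of this probe set comes from them.

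Among the mediators MDC1 fell. It measured 957, 1189, 990 and 954 in quiescent samples 1 to 4, against 2437, 1718, 1756 and 1777 in cycling samples 1 to 4. The groups did not overlap, and cycling sample 1 stood above the other cycling arrays. The means were 1023 ± 112 in quiescent cells and 1922 ± 344 in cycling cells (SD, n = 4 each), a log2 difference of −1.31 (SE 0.19, adjusted p = 6.68e-05) and −0.90 as deposited (adjusted p = 9.13e-04). Its dimmer probe set averaged 190 in quiescent cells and 330 in cycling cells, with overlapping groups, and was not called (−1.11, adjusted p over all probe sets 0.0714).

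RNF8, the ubiquitin ligase that acts after MDC1, measured 7449, 6641, 8316 and 8470 in quiescent samples 1 to 4, against 9294, 6956, 10035 and 10000 in cycling samples 1 to 4. The groups overlapped through cycling sample 2. The means were 7719 ± 848 in quiescent cells and 9071 ± 1451 in cycling cells (SD, n = 4 each). RNF8 passed as lower in the centred values (−0.64, SE 0.20, adjusted p = 0.0184), which relative to the median of all genes is −0.30. It did not pass as deposited (−0.22, adjusted p = 0.241) or quantile normalized (−0.091, adjusted p = 0.634), nor in the centred values without quiescent sample 2, cycling sample 3 or cycling sample 4 (adjusted p = 0.0578, 0.0716 and 0.0662).

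TP53BP1, the mediator that favours end joining, measured 918, 624, 914 and 986 in quiescent samples 1 to 4, against 655, 625, 675 and 599 in cycling samples 1 to 4 at its brightest probe set. Quiescent sample 2 fell among the cycling arrays, and the other quiescent arrays were above all of them. The means were 861 ± 161 in quiescent cells and 638 ± 33.5 in cycling cells (SD, n = 4 each), with a log2 difference of −0.002 (95% interval −0.43 to 0.42, adjusted p = 0.995), 0.41 as deposited (adjusted p = 0.0905) and 0.34 quantile normalized (adjusted p = 0.18). The next probe set of TP53BP1 measured 823, 801, 1005 and 1027 in quiescent samples 1 to 4, against 545, 620, 499 and 613 in cycling samples 1 to 4, and here the deposited values did not overlap. It had a log2 difference of 0.27 centred (adjusted p over all probe sets 0.403), 0.68 as deposited (adjusted p 0.0154) and 0.61 quantile normalized (adjusted p 0.0269). The one after it also passed as higher as deposited (0.56, adjusted p 0.0353), where its groups did not overlap. It did not pass centred (0.15) or quantile normalized (0.47, adjusted p 0.0735). As deposited 6.43% of all probe sets were called higher, and 4.29% quantile normalized.

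**Figure D2:**
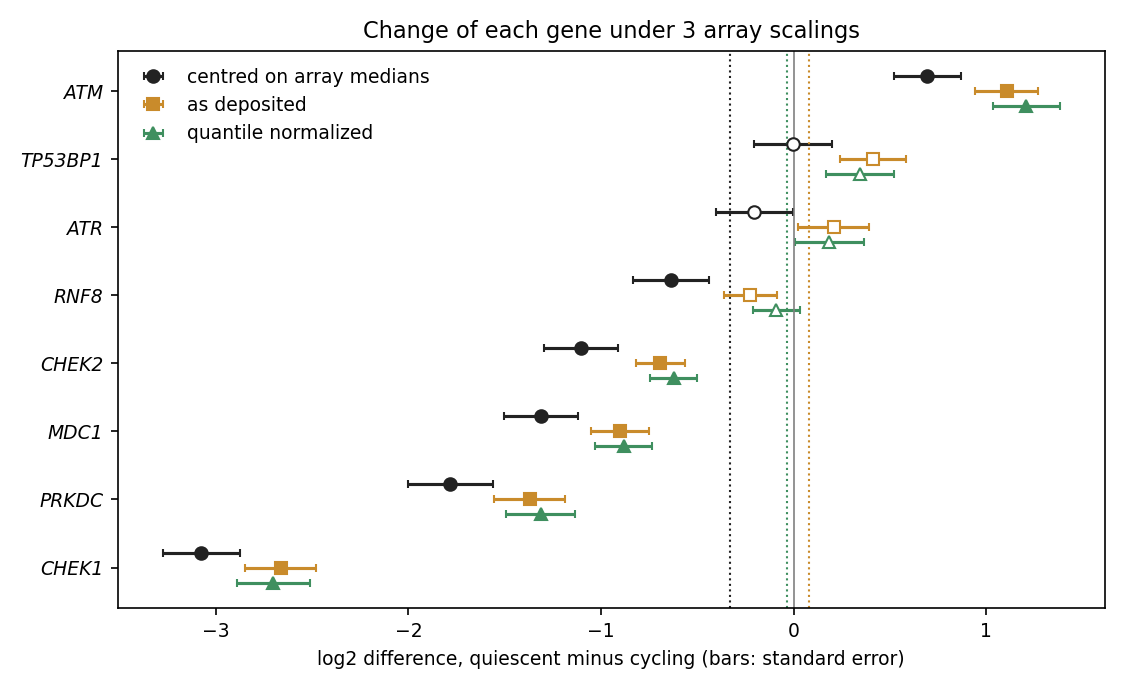
Log2 difference of each gene, quiescent minus cycling (horizontal axis; bars are standard errors), for arrays centred on their medians, as deposited and quantile normalized. Filled symbols passed limma at an adjusted p under 0.05 and open symbols did not, dotted lines mark the median of all genes tested in the same colour, and ATM, CHEK2, MDC1, PRKDC and CHEK1 are filled under all 3 scalings.

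**Figure D3:**
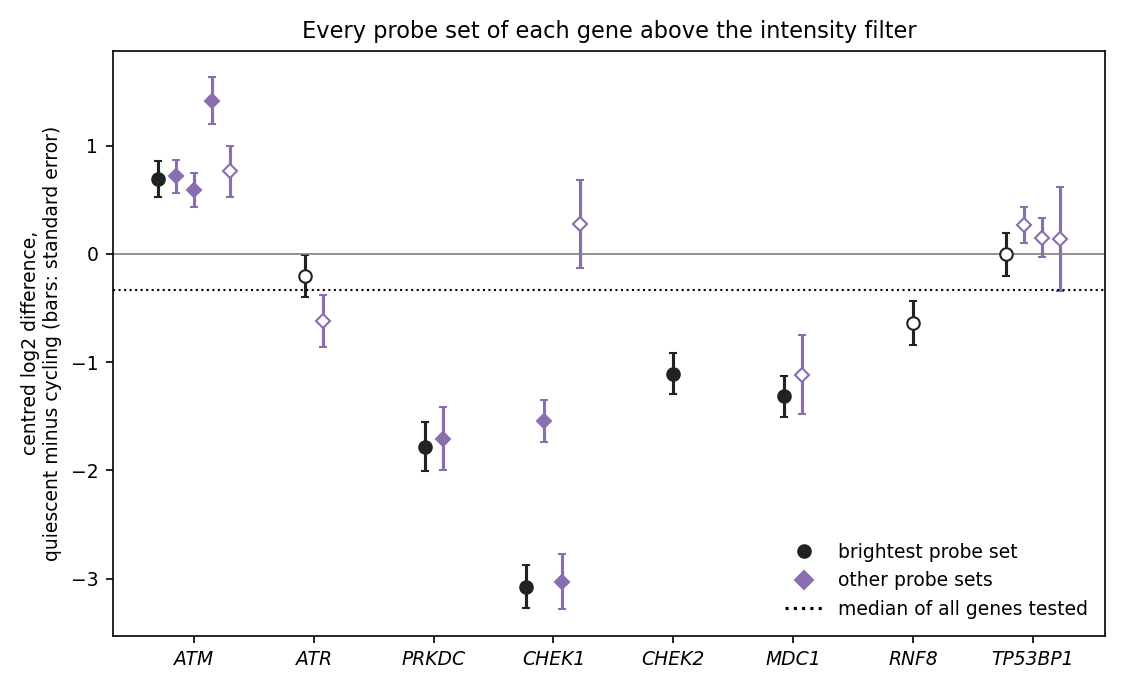
Centred log2 difference, quiescent minus cycling (vertical axis; bars are standard errors), of each probe set above the intensity filter, with the brightest of each gene as a circle and the others as diamonds. Filled symbols passed the fit over all probe sets; all 5 ATM probe sets lie above 0, and the CHEK1 probe sets spread from −3.07 to 0.28.

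The ratio of a pair of genes on the same array is left as it is by centring or any constant factor for the array, though not by quantile normalization, and 7 such ratios were compared between the groups with a two-sided exact permutation test over the 70 assignments of arrays. The ATM to ATR log2 ratio was higher in quiescent cells by 0.90, the ATM to PRKDC ratio by 2.48 and the ATM to CHEK2 ratio by 1.80. The ATR to CHEK1 ratio was higher by 2.87, so that the effector kinase fell relative to the kinase that activates it. The CHEK1 to CHEK2 log2 ratio differed by −1.97, and the MDC1 to TP53BP1 ratio by −1.31. For each of these 6 ratios the groups did not overlap, with exact permutation p = 0.0286, the smallest that 70 assignments allow, and 0.0333 after adjustment over the 7 ratios. For ATM to PRKDC and ATM to CHEK2 that outcome was fixed in advance, since both genes of the pair already separated the groups, in opposite directions. It was also fixed for ATR to CHEK1, CHEK1 to CHEK2 and MDC1 to TP53BP1. Given the lowest and highest value of each gene in each group, no matching of arrays could make those ratios overlap. For all of these pairs the p-value adds nothing to the single-gene values. Of the 6 ratios, only ATM to ATR could have overlapped given the ranges of its genes. The ratios also share members, so their p-values are not independent of each other or of the results for single genes. The MDC1 to RNF8 ratio differed by −0.68 with overlapping groups (exact permutation p = 0.0857, adjusted 0.0857). Quantile normalization moved the differences to 1.02 for ATM to ATR, −2.08 for CHEK1 to CHEK2 and −0.79 for MDC1 to RNF8, with the same sign for all 7 ratios. Only the change of a ratio is read here, since probe sets differ in brightness for the same amount of RNA.

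**Figure D4:**
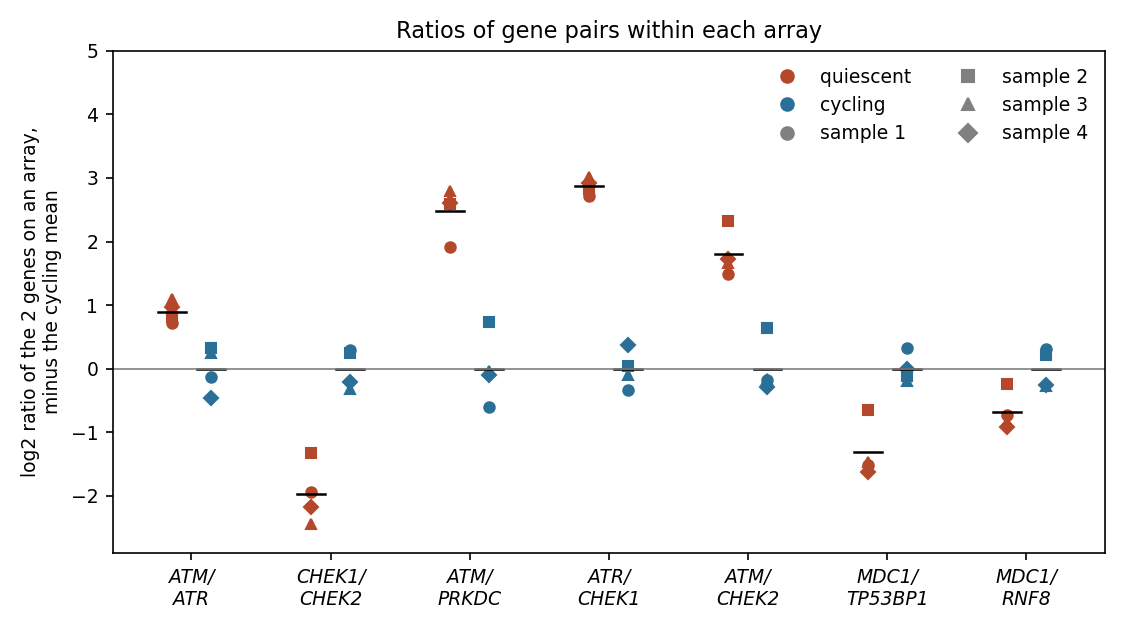
Log2 ratio of the first to the second gene of each pair on every array, minus the mean of the cycling arrays for that pair (vertical axis), with quiescent arrays left of cycling arrays and a line at each group mean. The groups are separate for 6 of the 7 pairs and overlap for MDC1 to RNF8.

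The starts of ATM and of NPAT, a regulator of histone gene transcription, face away from each other in RefSeq and lie 429 bases apart, so that both genes share a promoter region. NPAT averaged 2030 ± 530 in quiescent cells and 1098 ± 303 in cycling cells (SD, n = 4 each). It did not pass centred (0.48, SE 0.22, adjusted p = 0.0996) and passed as higher as deposited (0.89, adjusted p = 0.0106) and quantile normalized (0.90, adjusted p = 9.79e-03). HSCB, a cochaperone of iron-sulfur assembly whose start lies 212 bases from that of CHEK2, did not pass under any of the 3 scalings. It averaged 1079 ± 194 in quiescent cells and 846 ± 131 in cycling cells, with a log2 difference of −0.07 centred and 0.34 as deposited (adjusted p = 0.817 and 0.166). MAP1A, 314 bases from TP53BP1, was not called either (−0.18, adjusted p = 0.709, and 0.23 as deposited, adjusted p = 0.604). In centred values HSCB and MAP1A were negative and in deposited values positive. CHEK1 also has such a neighbour, LOC118567325, whose start lies 330 bases away and which was not among the genes tested. PRKDC had no listed start in the reference used, so its neighbours could not be searched.

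The genes most like each member across the 8 arrays were found by Pearson r of centred log2 values among all genes tested, as a description of these arrays, which share their brightness and their group. For ATM they were IQSEC1 (r = 0.985), PCMTD1 (0.974) and MDM4 (0.971), an inhibitor of p53. For CHEK1 they were ZNF134 (0.994), the kinetochore protein ZWINT (0.994) and the centromere protein CENPK (0.994). PRKDC had MCM4, a subunit of the replicative helicase, among its 3 nearest (0.996), after ACAT1 (0.996) and COASY (0.996). CHEK2 was most like VPS72, PSMG2 and DCPS (0.998, 0.997 and 0.997), MDC1 like EYA3, MRPL20 and GDAP1 (0.995, 0.994 and 0.994), and RNF8 like GRB2, CMTM4 and ARL11 (0.993, 0.991 and 0.989). For ATR and TP53BP1, whose groups overlapped, they were TOX, ZNF8 and VPS8 (0.919, 0.909 and 0.905) and TMEM219, ARRDC1-AS1 and LTB (0.978, 0.978 and 0.972).

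The other genes of the pathway were counted by role, and each count is to be read against the share of all genes called in the same fit. Called lower were 32.5% of all genes centred, 15.4% as deposited and 16.3% quantile normalized, and called higher 2.8%, 12.2% and 10.5%. Of 5 measured genes of the MRE11 complex and ATM activators, 4 fell and none rose, with 3 lower as deposited. The nuclease MRE11 averaged 600.2 ± 122 in quiescent cells and 883 ± 78.5 in cycling cells (log2 difference −0.99), NBN differed by −0.88 and the acetyltransferase KAT5 by −0.85. RAD50 passed as lower only when centred (−0.59, and −0.17 as deposited), and ATMIN was not called (−0.19, or 0.23 as deposited). Of 10 ATR activators and clamp subunits, 9 fell centred, 4 as deposited and 3 quantile normalized, and none rose. RPA3, a subunit of the protein that coats single-stranded DNA, averaged 812 ± 113 in quiescent cells and 1804 ± 627 in cycling cells (−1.52). RHNO1 differed by −1.46 and the clamp subunit RAD9A by −1.07. ETAA1, an activator of ATR, was not called (0.17 centred and 0.58 as deposited).

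The fork proteins that pass the ATR signal to CHEK1 had the lowest median of the 9 lists, −1.23 against −0.33 for all genes. Of 6 measured, 5 fell centred, 3 as deposited and 5 quantile normalized. WDHD1, a replisome scaffold, averaged 114 ± 6.55 in quiescent cells and 484 ± 158 in cycling cells (−2.44). TIPIN and TIMELESS, which form the fork protection complex, differed by −1.90 and −1.42. CLSPN, the adaptor that presents CHEK1 to ATR, was dim, at 88.3 ± 15.3 in quiescent cells and 129 ± 17.9 in cycling cells. It passed as lower centred (−0.96, adjusted p = 0.0288) and quantile normalized (−0.94, adjusted p = 0.0291) but not as deposited (−0.55, adjusted p = 0.207).

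Partners of DNA-PKcs in end joining fell in part. Of 9 measured, 5 fell centred and 4 as deposited, and none rose. XRCC5 and XRCC6 encode the Ku proteins that load DNA-PKcs on DNA ends. XRCC5 averaged 5496 ± 467 in quiescent cells and 10280 ± 2160 in cycling cells (−1.30), and XRCC6 averaged 9323 ± 601 in quiescent cells and 13624 ± 1104 in cycling cells (−0.96). The ligation scaffold XRCC4 differed by −1.02, whereas the ligase LIG4 and the polymerase POLM were not called (−0.37 and −0.0095, or 0.044 and 0.40 as deposited).

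In ubiquitin signalling after RNF8, 12 of 17 measured genes fell centred, 5 as deposited and 5 quantile normalized. Without cycling sample 3 or cycling sample 4 the centred count was 7 and 6. BRCA1, a ubiquitin ligase of recombination, averaged 375 ± 56.7 in quiescent cells and 1682 ± 331 in cycling cells (−2.57), its partner BARD1 differed by −1.24 and the conjugating enzyme UBE2N by −1.02. As deposited RNF168, the ligase that extends the RNF8 signal, and the deubiquitinase USP3 were called higher (0.42, adjusted p = 0.0461, and 0.70, adjusted p = 1.46e-03). Neither was called centred (0.006 and 0.29). Of 11 effectors and regulators of TP53BP1, 7 fell centred, 5 as deposited and 4 quantile normalized. The shieldin subunits MAD2L2, SHLD2 and SHLD1 had log2 differences of −1.24, −0.99 and −0.97. As deposited 1 gene of this list, ASTE1, was higher (0.71, adjusted p = 0.0381, and 0.30 centred, not called).

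Of 7 kinases related to ATM and their assembly chaperones, 6 fell centred and 3 as deposited. With each array left out in turn the centred count was 4 to 5. The ATPases RUVBL1 and RUVBL2 averaged 914 ± 165 and 1400 ± 145 in quiescent cells, against 3213 ± 491 and 4532 ± 745 in cycling cells (−2.23 and −2.10). TTI1, a subunit of the complex that stabilises newly made kinases of this family, differed by −1.22. TRRAP, a family member without kinase activity, was not called centred (0.17) and was higher as deposited (0.58, adjusted p = 0.0187).

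Of 13 measured targets of the checkpoint kinases, 7 fell and 1 rose centred, with 5 lower and 2 higher as deposited. The phosphatases CDC25A and CDC25C, which CHEK1 and CHEK2 restrain, averaged 428 ± 214 and 151 ± 99.6 in quiescent cells, against 2488 ± 952 and 665 ± 63.3 in cycling cells (−3.03 and −2.77). The cohesin subunit SMC1A, which ATM phosphorylates, differed by −1.66. MDM4 was the gene that rose, at 9393 ± 1141 in quiescent cells and 4813 ± 991 in cycling cells (0.56, adjusted p = 0.0126, and 0.98 as deposited), and of the 13 genes none was called higher centred without quiescent sample 3, and 2 without quiescent sample 1. The p53 target CDKN1A, which encodes p21, and H2AX, whose phosphorylation MDC1 reads, were not called (0.00083 and −0.21, or 0.41 and 0.20 as deposited). Of 11 phosphatase genes that end checkpoint signalling, 5 fell centred, against 32.5% of all genes, and 2 as deposited, a share near the 15.4% of all genes. Centred, PPP1CA, PPP2CA and PPP6C differed by −0.94, −0.90 and −0.79. PPP6C was not called as deposited (−0.38, adjusted p = 0.073) or quantile normalized (−0.29, adjusted p = 0.192). Without cycling sample 3 or quiescent sample 4 the centred count was 3. PPM1D, the phosphatase that reverses ATM signalling, was not called (−0.36, and 0.05 as deposited).

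**Figure D5:**
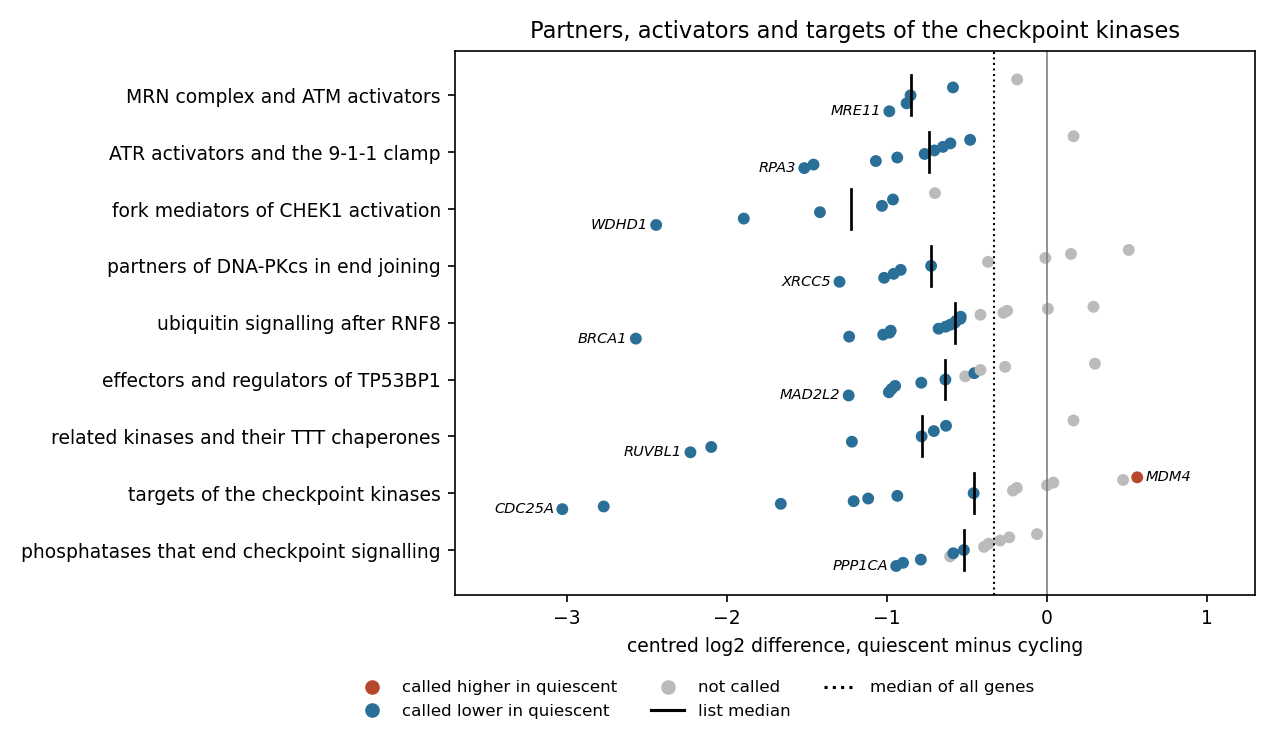
Centred log2 difference, quiescent minus cycling (horizontal axis), of every tested gene of 9 lists of partners, activators, targets and phosphatases of the checkpoint kinases. Points are coloured by their limma call, short lines mark list medians and the dotted line the median of all genes tested (−0.33); every list median lies left of that line, and MDM4 is the point called higher.

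Several properties of the arrays moved with the groups and bear on all of these values. For the ACTB controls, 3′ signal over 5′ signal, which grows as RNA degrades, had a log2 value of 2.57 ± 0.18 on quiescent arrays and 2.02 ± 0.20 on cycling arrays (SD, n = 4 each). For the GAPDH controls it was smaller, at 0.113 ± 0.021 on quiescent arrays and −0.046 ± 0.088 on cycling arrays, and again the groups did not overlap. The part of these ratios in the results was not tested. Array medians ran from 103 to 113 on quiescent arrays and from 71.9 to 97.9 on cycling arrays. The number of arrays limits the precision. With each array left out in turn, 1 of the 8 genes was called higher, and 5 were called lower except without quiescent sample 2, cycling sample 3 or cycling sample 4, where 4 were because RNF8 was no longer called. The summed intensity of 5 B cell markers ran from 51025 to 62458 on quiescent arrays and from 51250 to 61831 on cycling arrays, and 4 of the 5 were called lower centred and none as deposited. That of 13 markers of other blood and stromal cells ran from 1242 to 1841 on quiescent arrays and from 1037 to 1490 on cycling arrays, 5 of the 13 passed the filter, and none of those was called under limma. Values are averages over sorted fractions, so that fewer cells with a transcript and less of it in each cell cannot be told apart, and since each array was set to the same average they are not amounts per cell.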

How the data were processed

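RNA of 4 quiescent and 4 cycling fractions of RL aggregates was measured on Affymetrix U133 Plus 2.0 arrays from 30 ng of total RNA, per the labels' protocols. The deposited values are intensities on a linear scale made with MAS5, per the submitters' processing notes, with no version named by the sources used here. The 2% trimmed mean of every array was 500.1, so the authors had scaled the arrays to a common average. Present calls were not used here.

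A floor of 1 was applied before log2, and arrays were centred on their medians over all probe sets but 62 controls. Array medians differed by 0.657 on the log2 scale. The annotation listed 41091 probe sets with 1 gene symbol, 1801 with several, and left 11783 unlisted, controls included. Entrez identifiers of 41037 matched RefSeq genes (GRCh38.p14) and 0 symbols changed. Each gene was represented by the probe set with the highest mean log2 value over 8 arrays. The filter dropped 8097 genes with a mean below the median probe set (intensity 83.3). Groups were fitted by lmFit and moderated by eBayes with its trend and robust options (R 4.3.3, limma 3.58.1), with Benjamini-Hochberg adjustment over all 11678 genes and a threshold of 0.05, and again over all 54613 probe sets that are not controls. Standard errors are those of limma. A simulation over 11678 genes, 200 of them changed, tested the fit: it called 48% of the 2-fold changes, 90% of the 4-fold changes and 7 unchanged genes. It used independent noise, no shift between arrays and far fewer changed genes than were called in the data. Its figures are therefore not error rates of the fits reported here. Pair ratios were compared by exact permutation in Python 3.11.15. Promoter letters were searched in RefSeq windows.

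The members and gene lists were chosen with earlier results of these data known, so no test of a list and no adjustment over a list of genes is given. The 7 ratios are built from the same chosen members, and each was tested alone with adjustment over the 7. Of each list, the text names up to 3 called genes a direction with the largest change and no overlap between groups. Others are named, after their values were seen, for their role or because few moved. Alternatives were the scaling as deposited, quantile normalization, no filter, a filter at the 75th percentile, 32 added before the log, the mean of all probe sets of a gene, plain eBayes, the sample number as a block, and leaving out each array.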

Additional observations from a re-analysis of the deposited data

Results flagged for a closer look

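Of 16 groups of 4 arrays examined for an array far from its group (8 genes in each fraction, centred log2 values), 2 held one, and chance gives about 1 in 20. Both are quiescent sample 2. ATR measured 1473 there against 935 to 1008 on the other quiescent arrays, a gap of 0.871 of the range of the group. TP53BP1 measured 624 there against 914 to 986, a gap of 0.926 of the range, and both gaps lie above Dixon's 95% critical value.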

How the results depend on the processing

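ATM, CHEK1, CHEK2, PRKDC and MDC1 kept their direction and passed limma under each alternative run. As deposited, with or without the replicate block, ATR differed by 0.21, TP53BP1 by 0.41 and RNF8 by −0.22, and quantile normalized by 0.19, 0.34 and −0.091, all uncalled. TP53BP1 also differed by 0.088 with 32 added before the log and by 0.14 as the mean of its probe sets. With plain eBayes RNF8 (−0.64) had an adjusted p of 0.0536. The genes called higher and lower numbered 1430 and 1802 as deposited and 1232 and 1909 quantile normalized, and with the replicate block 2002 and 2232 as deposited and 1745 and 2362 quantile normalized. Combining the block with those scalings, and leaving out arrays for the list counts, were chosen after seeing the data.

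Same-numbered arrays had correlated deviations of 0.344, 0.196, 0.110 and 0.0361 over 11678 genes, which is over 0.1 for 3 of the 4 numbers. Samples 1 and 2 each correlated best with their own number, and samples 3 and 4 did not in both directions. The labels give no shared origin, so the number was not taken as a pairing. With the number as a block 465 genes were higher and 4443 lower, and the calls of the 8 genes did not change (ATM adjusted p = 9.25e-04). A sign-flip test of the 4 paired differences cannot go below 0.125 and gave that p for all 7 ratios: 0.90 for ATM to ATR, −1.97 for CHEK1 to CHEK2, 2.48 for ATM to PRKDC, 2.87 for ATR to CHEK1, 1.80 for ATM to CHEK2, −1.31 for MDC1 to TP53BP1 and −0.68 for MDC1 to RNF8.

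Leaving out 1 array at a time, ATM ranged from 0.58 to 0.79, ATR from −0.35 to −0.08, CHEK1 from −3.23 to −2.97, CHEK2 from −1.27 to −1.02, PRKDC from −1.99 to −1.63, MDC1 from −1.45 to −1.18, RNF8 from −0.85 to −0.52 and TP53BP1 from −0.10 to 0.15. Genes called ranged from 223 to 358 higher and 2945 to 4536 lower, and of the 8 genes 1 was higher and 4 to 5 lower. The ratios ranged from 0.75 to 1.01 for ATM to ATR, −2.19 to −1.81 for CHEK1 to CHEK2, 2.27 to 2.72 for ATM to PRKDC, 2.76 to 3.00 for ATR to CHEK1, 1.62 to 2.01 for ATM to CHEK2, −1.53 to −1.20 for MDC1 to TP53BP1 and −0.82 to −0.57 for MDC1 to RNF8. Without any 1 cycling array the MDC1 to TP53BP1 ratio had an adjusted p of 0.0667, and without quiescent sample 2 MDC1 to RNF8 had 0.0286. The causes were not tested. The probe set of CLSPN and the dimmest of CHEK1 lie near the intensity filter of 83.3.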

Other observations

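After group means were removed, centred CHEK2 and RNF8 values moved together over the 8 arrays (Pearson r = 0.982), as did PRKDC with MDC1 (0.844) and with CHEK1 (0.813), while CHEK1 and CHEK2 did not (−0.02). These correlations describe 8 arrays that share their scaling and carry no test. ATM and TP53BP1 had r = −0.64 on the same values. Much of this rests on quiescent sample 2, which had the highest centred ATM value (12.92) and the lowest centred TP53BP1 value (9.07) of all arrays.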
